A study of Mus musculus with 8 samples.

Results

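The genes by which the mineralocorticoid receptor drives sodium uptake in epithelia were followed in mouse peritoneal macrophages with and without that receptor. They are 8 genes taken by name: the kinase gene Sgk1, the epithelial sodium channel genes Scnn1a, Scnn1b and Scnn1g, the sodium pump subunit genes Atp1b1 and Atp1b3, and the ubiquitin pathway genes Nedd4l and Usp2. All probe sets that the platform annotation assigns to 1 of these genes alone were used, which gave 18 of the 45037 probe sets analysed and 8 of 18193 genes. Sgk1, Atp1b3 and each channel gene had 1 probe set, Usp2 had 2, Atp1b1 had 5 and Nedd4l had 6. The questions were which of these genes give a signal in macrophages, which respond to corticosterone, and whether the response needs the receptor.

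RNA was hybridised to Affymetrix mouse arrays after 3% thioglycolate had been injected into the peritoneum of male C57BL6/J mice, the cells had been taken on day 4 and the adherent ones kept. Knockout cells were MR fl/fl with LysM cre, in which Cre is expressed from the lysozyme promoter of myeloid cells, and control cells were MR fl/fl without Cre, so both genotypes carry the floxed receptor gene Nr3c2. The 4 groups were knockout cells with 1 µM corticosterone for 24 h, untreated knockout cells, control cells with the same corticosterone and untreated control cells, each with 2 arrays. The labels call the arrays of a group biological replicates, but each sample pools experiments run in triplicate, so p-values measure only the spread between these pools, and the number of arrays limits the precision.

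In the collecting duct and distal colon, aldosterone binds the mineralocorticoid receptor, which raises transcription of Sgk1. The kinase SGK1 phosphorylates the ubiquitin ligase NEDD4-2, the product of Nedd4l, which then removes less of the epithelial sodium channel from the cell surface, and the sodium pump on the opposite membrane carries the sodium out of the cell. Corticosterone, the main glucocorticoid of mice, binds this receptor as well as the glucocorticoid receptor encoded by Nr3c1, and the enzyme encoded by Hsd11b2 inactivates it in those epithelia.

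The deposited values are log2 levels, 1 per probe set and array, made with RMA, a method that gives no detection call. Untreated control replicate 2 stood apart from the other 7 arrays. Its median correlation with the others was 0.919, against 0.994 to 0.995 for the rest, and the 3′ probe set of Actb exceeded the 5′ one by 2.18 log2 units, against 0.41 to 0.62. The mean level of 7 fibroblast markers was 10.82 there and 7.85 to 8.27 elsewhere, while that of 8 macrophage markers was 11.74 there and 12.26 to 12.33 elsewhere. The fits were therefore made with all 8 arrays and with the 7 without this one. Values are those of 7 arrays unless 8 are named, and differences between groups that do not hold this array have the same size in both fits. With 7 arrays the untreated control group is a single array, for which the fit borrows the spread of the other 3 groups, and all comparisons with untreated control cells rest on it.

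The receptor gene was read by its brightest probe set. Nr3c2 had 5.11 and 5.47 log2 units in knockout cells with corticosterone, 5.54 and 5.82 in untreated knockout cells, 6.39 and 6.13 in control cells with corticosterone, and 6.39 and 8.46 in untreated control cells. All 4 knockout arrays lay below all 4 control arrays. On the 7 arrays Nr3c2 read 5.11 to 6.39. This lies within the 2.43 to 6.46 of 16 genes of tissues outside the cavity, described below. These levels therefore do not show that Nr3c2 RNA was present. With 7 arrays the difference with corticosterone was -0.97 (SE 0.172, limma adjusted p = 0.0369) and that without it was -0.71 (SE 0.21, limma adjusted p = 0.194). Neither was called with 8 arrays, and the labels do not say whether its probes lie in the deleted part of the gene, outside which they would not check the knockout. Nr3c1, the glucocorticoid receptor gene, read 11.05 to 11.32 on the 7 arrays and 10.54 on the other. Hsd11b2 read 3.50 to 4.18 on the 7 arrays and 4.39 on the other. Hsd11b1, whose enzyme regenerates corticosterone, read 5.67 to 6.71 on the 7 and 5.50 on the other.

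Sgk1 is known as a direct target of both receptors, so its promoter is shown beside that of Atp1b1, the member with the largest response below. Windows from 250 bases before to 50 bases after a transcription start were matched in RefSeq (GRCm38.p6) for 6 of the 8 genes, all but Scnn1a and Nedd4l, giving 12 windows, of which 6 belong to Sgk1. They were searched on both strands for the palindrome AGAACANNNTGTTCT of the steroid receptors, its looser form GNACANNNTGTNC, which overlaps it, and the single arm AGAACA, which both ends of the palindrome hold. The palindrome occurred in 3 of all 32851 windows (0.00913%), the looser form in 156 (0.475%) and the arm in 6233 (19%). The Sgk1 window at chr10:21993640-21993939 (plus strand) holds the palindrome, which starts at position -189 from the transcription start and is in capitals. The Atp1b1 window at chr1:164458306-164458605 (minus strand) holds none of the 3 motifs, and among the members the palindrome and its looser form occurred in this Sgk1 window only. A match is a description of letters, not evidence of binding.
Sgk1: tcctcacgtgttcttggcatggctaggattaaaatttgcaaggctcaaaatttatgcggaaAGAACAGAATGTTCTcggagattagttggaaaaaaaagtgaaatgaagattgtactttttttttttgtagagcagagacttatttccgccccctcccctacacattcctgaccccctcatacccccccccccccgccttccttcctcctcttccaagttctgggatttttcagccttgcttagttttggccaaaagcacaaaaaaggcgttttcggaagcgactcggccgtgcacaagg
Atp1b1: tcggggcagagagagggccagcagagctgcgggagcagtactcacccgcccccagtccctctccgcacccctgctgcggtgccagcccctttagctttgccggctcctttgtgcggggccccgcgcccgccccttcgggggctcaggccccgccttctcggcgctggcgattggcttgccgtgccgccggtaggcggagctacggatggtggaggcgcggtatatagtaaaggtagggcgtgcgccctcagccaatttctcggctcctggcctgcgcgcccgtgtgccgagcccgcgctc

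Sgk1 gave a high and nearly flat signal in all groups. Its level was 13.01 and 12.97 in knockout cells with corticosterone, 12.98 and 13.05 in untreated knockout cells, 13.03 and 13.03 in control cells with corticosterone, and 13.11 and 12.89 in untreated control cells. The 2 untreated control arrays hold both the highest and the lowest value, and the other 6 arrays lie between them. Corticosterone changed it by -0.02 in knockout cells (95% interval -0.08 to 0.04, limma adjusted p = 0.727, 7 arrays) and by -0.08 in control cells (-0.16 to -0.01, limma adjusted p = 0.204). The knockout minus control difference was -0.04 with corticosterone (limma adjusted p = 0.796) and -0.10 without it (limma adjusted p = 0.243). The knockout response minus the control response was 0.06 (95% interval -0.03 to 0.16, limma adjusted p = 0.931), and with 8 arrays no Sgk1 difference was called either.

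The level of Sgk1 exceeded that of 99.1% of probe sets, although the brightest probe set on the arrays read 14.26. In knockout cells 4.33% of all probe sets were called higher with corticosterone and 4.82% lower. Among 737 probe sets whose mean lay within 0.5 log2 units of that of Sgk1, 71 were called higher and 57 lower there. Their largest called increases were 0.65 (Dusp1, knockout cells) and 0.79 (C1qb, control cells), both genes named after their values were seen. Whether a larger rise can be read so near the top of the scale was not tested. The flat reading of the 1 Sgk1 probe set therefore does not exclude a rise of its RNA.

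Other genes that steroid receptors are known to induce moved on the same arrays. Of 7 such genes measured, 5 rose with corticosterone in knockout cells with 7 arrays, where 5.16% of all genes were higher. The same 5 rose in control cells by the amounts below. These genes were chosen with earlier results of these data known, so their number is not a test. Fkbp5, a chaperone that binds the receptors, had 12.07 and 12.07 in knockout cells with corticosterone, 8.45 and 8.45 in untreated knockout cells, 11.93 and 11.97 in control cells with corticosterone, and 8.09 and 8.72 in untreated control cells. Its response was 3.62 (SE 0.0416, limma adjusted p = 1.17e-10) in knockout cells and 3.86 (SE 0.051, limma adjusted p = 6.18e-10) in control cells, and it was also called with 8 arrays. Zbtb16, a transcription factor gene, rose by 2.31 in knockout cells and by 2.82 in control cells. Tsc22d3, which encodes the leucine zipper protein GILZ, rose by 1.63 in knockout cells and by 1.52 in control cells. The clock gene Per1 rose by 1.62 in knockout cells and by 1.66 in control cells, and Lcn2, which encodes a secreted protein that binds iron carriers, by 2.25 in knockout cells and by 2.31 in control cells. With 8 arrays none of these 4 was called, and the control differences were 1.82 for Zbtb16, 2.45 for Tsc22d3, 2.21 for Per1 and 2.85 for Lcn2. Edn1 and Ndrg2 were not called in either genotype. None of the 7 passed the interaction test of a difference between the responses of the genotypes, and of these genes Fkbp5 alone differed between untreated knockout and control cells (0.36, limma adjusted p = 0.00981, 7 arrays).

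**Figure D1:**
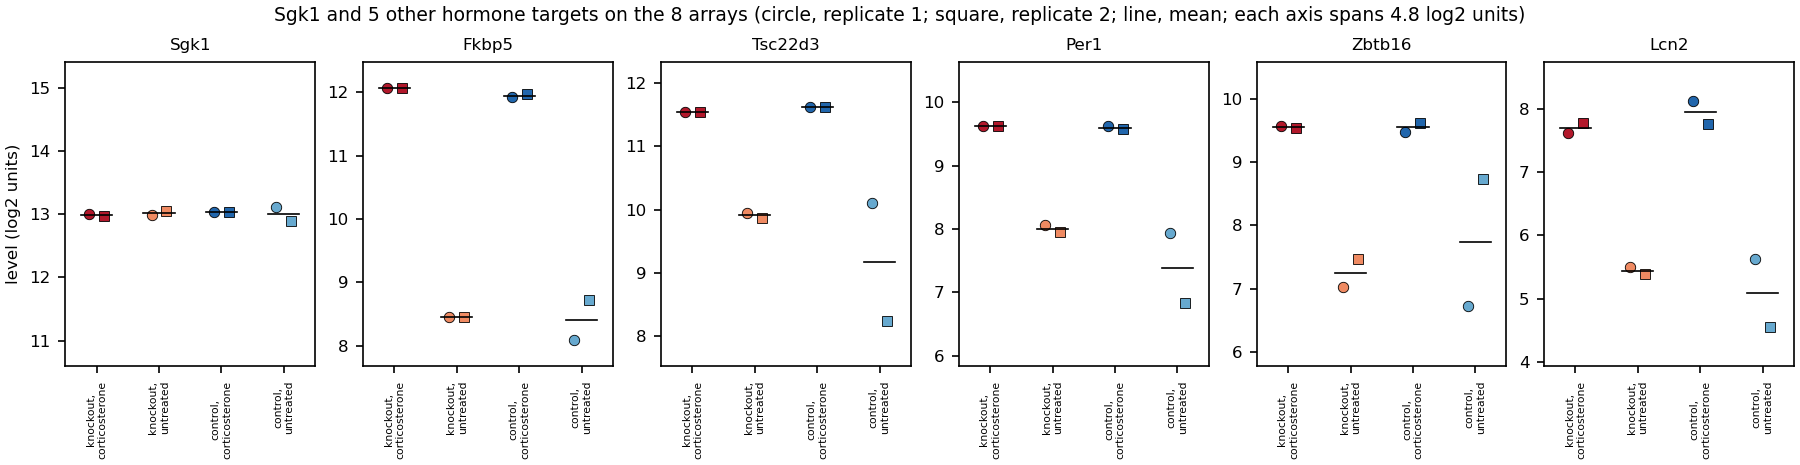
Level (log2 units) of Sgk1 and of 5 other known hormone targets on each array, by group, with replicate 1 as a circle, replicate 2 as a square and the group mean as a line. Sgk1 stays between 12.89 and 13.11, while Fkbp5 lies at 11.93 to 12.07 with corticosterone and at 8.09 to 8.72 without it. Sgk1 is read near the top of the scale, above 99.1% of probe sets, and the other targets start from lower levels.

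The 3 epithelial sodium channel subunits gave low values in every group. Scnn1a, the alpha subunit, read 3.53 and 3.65 in knockout cells with corticosterone, 3.30 and 3.52 in untreated knockout cells, 3.38 and 3.37 in control cells with corticosterone, and 3.48 and 3.42 in untreated control cells. Scnn1b, the beta subunit, read 4.22 to 4.53 on the knockout arrays and 4.02 to 4.49 on the control arrays. Scnn1g, the gamma subunit, read 3.57 to 3.76 on the knockout arrays and 3.51 to 4.00 on the control arrays. The treated knockout arrays were the highest for Scnn1a, the knockout and control arrays overlapped for Scnn1b and Scnn1g, and none of the 3 was called in any of the 5 contrasts with 7 or with 8 arrays.

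These values lie above those of 24.1% (Scnn1a), 36.6% (Scnn1b) and 26.9% (Scnn1g) of all probe sets. Brightest probe sets of 16 genes made by tissues outside the cavity, such as liver, pancreas and pituitary, had means over the 7 arrays of 2.43 to 6.46, with a median of 4.44. The channel genes read within this range of genes whose RNA should be lacking. A level depends on the affinity of its probes as well as on the RNA, so this gives no bound on the channel RNA and no order among the 3 genes. Corticosterone differences with 7 arrays in knockout cells were 0.18 for Scnn1a (95% interval -0.13 to 0.48), -0.07 for Scnn1b (-0.42 to 0.28) and -0.01 for Scnn1g (-0.31 to 0.30). Those in control cells were -0.10 for Scnn1a (-0.47 to 0.27), 0.42 for Scnn1b (-0.01 to 0.84) and -0.10 for Scnn1g (-0.47 to 0.27). With 8 arrays they were -0.07, 0.29 and -0.28 for these genes in control cells.

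Of the cells that could bring such transcripts, mesothelial and epithelial cells were followed by 10 markers. Their mean was 5.61 to 5.74 in knockout cells with corticosterone, 5.45 to 5.52 in untreated knockout cells, 5.55 to 5.57 in control cells with corticosterone and 5.31 to 5.67 in untreated control cells. This mean hides opposite movements. By group means in knockout cells, Cdh1 fell with corticosterone from 7.98 to 7.39 and Epcam from 5.61 to 5.17, and Wt1 changed little. The others read higher with corticosterone, among them Msln (3.88 to 4.58) and Krt19 (4.97 to 5.63).

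**Figure D2:**
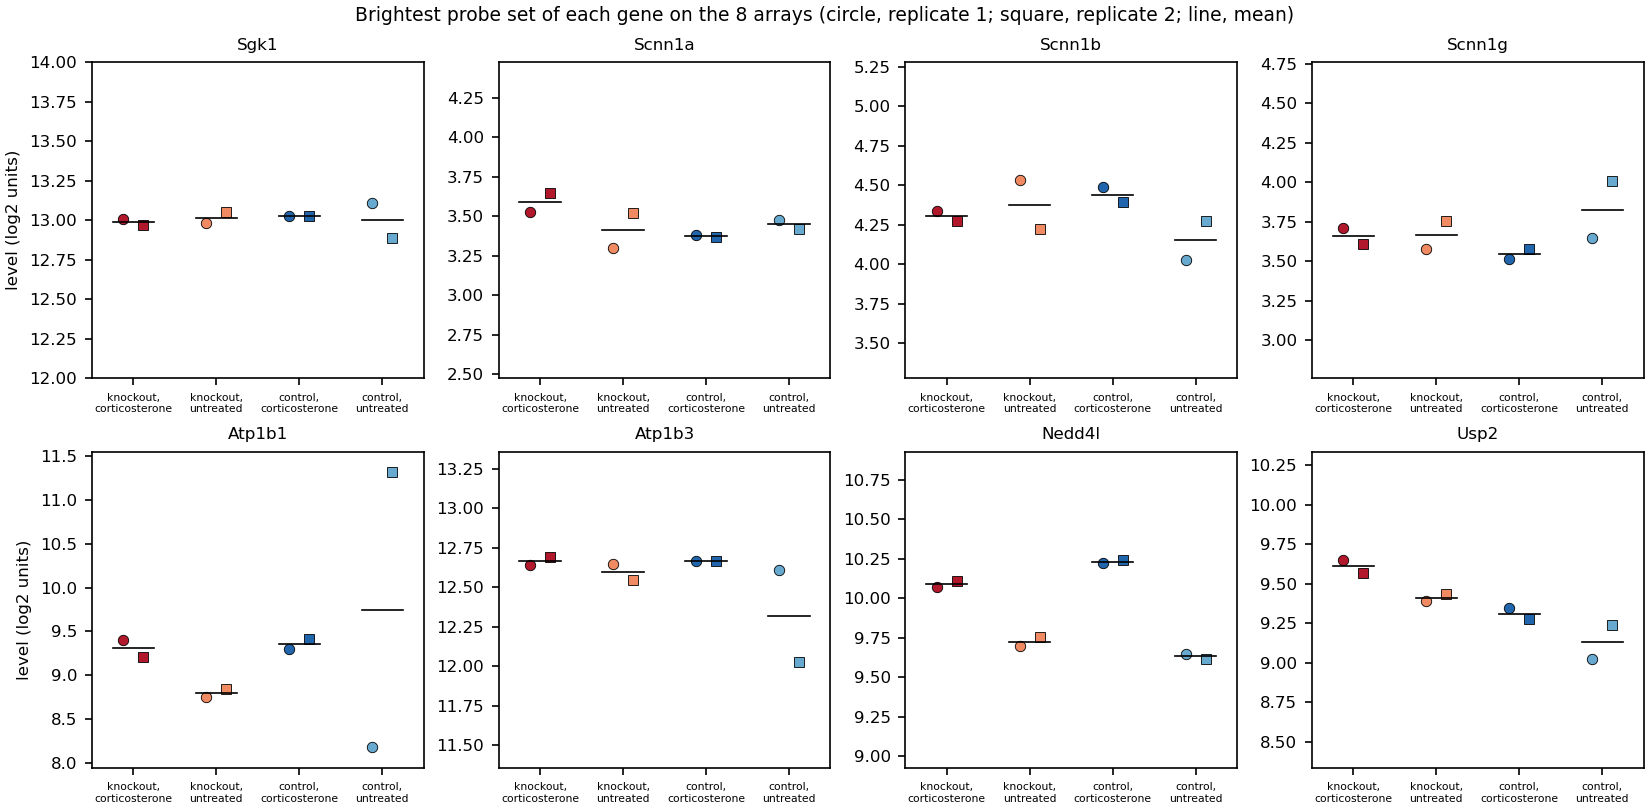
Level (log2 units) of the brightest probe set of each of the 8 genes on each array, by group, with replicate 1 as a circle, replicate 2 as a square and the group mean as a line; the panels have separate axes. Nedd4l is higher with corticosterone in both genotypes, Sgk1 and Atp1b3 are flat apart from untreated control replicate 2, and Atp1b1 reads 8.18 and 11.32 on the 2 untreated control arrays.

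The response of the members to corticosterone came from Atp1b1 and Nedd4l in both genotypes. With 7 arrays 6 of the 18 probe sets rose in knockout cells and none fell, where 4.33% of all probe sets rose and 4.82% fell. In control cells 8 rose and none fell, where 3.19% of all probe sets rose and 3.60% fell. By the brightest probe set of each gene, 2 of the 8 genes rose in knockout cells, against 5.16% of all genes higher and 7.26% lower, and 3 rose in control cells, against 4.30% higher and 5.22% lower. The median difference over the 8 genes was 0.12 in knockout cells and 0.17 in control cells (0.10 with 8 arrays), beside -0.0188 in knockout cells and -0.00474 in control cells over all genes. Probe sets of a gene share its RNA and are not independent. With 8 arrays no member was called in either genotype, where limma called 0.0577% of all probe sets in knockout cells and 0.0622% in control cells. An unadjusted limma p under 0.05 was found there for 1 member probe set in knockout cells, beside 1645 of all 45037. In control cells it was found for 4 member probe sets, beside 3686 of all.

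Atp1b1 encodes the beta subunit that carries the sodium pump to the membrane in most epithelia. Its brightest probe set (1451152_a_at) had 9.40 and 9.21 in knockout cells with corticosterone, 8.75 and 8.84 in untreated knockout cells, 9.30 and 9.42 in control cells with corticosterone, and 8.18 and 11.32 in untreated control cells. Both treated knockout arrays lay above both untreated ones, and both treated control arrays lay above untreated replicate 1 and below untreated replicate 2. With 7 arrays it rose by 0.51 in knockout cells (SE 0.0799, 1.43-fold, limma adjusted p = 0.00261) and by 1.18 in control cells (SE 0.0979, 2.26-fold, limma adjusted p = 7.51e-05). With all 8 arrays the control difference was -0.39 (limma adjusted p = 0.811). The knockout difference does not use that array except for its spread, and stayed at 0.51 with 8 arrays (SE 0.925, limma adjusted p = 1).

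The probe sets of Atp1b1 moved together on the 7 arrays but not on untreated control replicate 2. Besides the brightest, 1423890_x_at (the suffix x marks probes shared with other sequences), 1418453_a_at and 1439036_a_at rose with 7 arrays by 0.55, 0.72 and 1.09 in knockout cells and by 1.51, 1.03 and 1.63 in control cells. On untreated control replicate 2, 1423890_x_at read 10.91, the highest of its 8 values, whereas 1418453_a_at read 4.06 and 1439036_a_at read 2.47, the lowest of theirs. The fifth, 1455949_at, read 3.12 to 3.58 on all arrays and was not called. On the 7 arrays 1418453_a_at read 5.12 to 6.38 and 1439036_a_at read 3.72 to 5.56. These levels lie within the 2.43 to 6.46 of the 16 genes of tissues outside the cavity.

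Atp1b3, another beta subunit of the pump, was not called in any contrast. It had 12.64 and 12.69 in knockout cells with corticosterone, 12.65 and 12.55 in untreated knockout cells, 12.67 and 12.67 in control cells with corticosterone, and 12.61 and 12.03 in untreated control cells. The 7 arrays span 0.14 log2 units, and untreated control replicate 2 lies below them. The corticosterone difference was 0.06 in knockout cells (95% interval -0.01 to 0.14, limma adjusted p = 0.334) and 0.06 in control cells (-0.03 to 0.15, limma adjusted p = 0.54). Without knockout untreated replicate 1 it was 0.11 in knockout cells and called (limma adjusted p = 0.0437).

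Nedd4l, the ligase gene whose product removes the channel in epithelia, rose in both genotypes. Its brightest probe set (1423269_a_at) had 10.07 and 10.11 in knockout cells with corticosterone, 9.70 and 9.75 in untreated knockout cells, 10.22 and 10.24 in control cells with corticosterone, and 9.65 and 9.62 in untreated control cells. The treated arrays did not overlap with the untreated ones in either genotype, untreated control replicate 2 included. With 7 arrays it rose by 0.37 in knockout cells (SE 0.0482, 1.29-fold, limma adjusted p = 0.000952) and by 0.59 in control cells (SE 0.059, 1.5-fold, limma adjusted p = 0.000251). With 8 arrays the differences were 0.37 in knockout cells (limma adjusted p = 0.958) and 0.60 in control cells (limma adjusted p = 0.27), and neither was called.

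Among the other 5 probe sets of Nedd4l, 1423270_at rose by 0.98 in knockout cells (limma adjusted p = 0.00869) and by 1.08 in control cells (limma adjusted p = 0.0203). A second, 1441305_at, rose in control cells alone by 0.54 (limma adjusted p = 0.0309), beside 0.23 in knockout cells (limma adjusted p = 0.245), and the difference between the responses, -0.31, was not called (limma adjusted p = 0.901). The remaining 3 had positive differences of 0.13 to 0.57 in both genotypes and were not called. On untreated control replicate 2, 3 of the 5 read above all 7 other arrays and 2 read below them. On the 7 arrays 1423270_at read 3.98 to 5.31, within the 2.43 to 6.46 of the 16 genes of tissues outside the cavity. On the same arrays 1441305_at read 6.86 to 7.44, above that range.

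Usp2 encodes a deubiquitinating enzyme that opposes NEDD4-2 at the channel. Its brightest probe set (1417169_at) had 9.65 and 9.57 in knockout cells with corticosterone, 9.39 and 9.43 in untreated knockout cells, 9.35 and 9.28 in control cells with corticosterone, and 9.02 and 9.24 in untreated control cells. The groups did not overlap, and the knockout arrays lay above the control arrays both with and without corticosterone. With 7 arrays it rose with corticosterone in control cells by 0.29 (SE 0.0719, limma adjusted p = 0.043), and the difference in knockout cells was 0.20 (SE 0.0587, limma adjusted p = 0.0719). The control call was lost in 9 of its 16 alternatives, among them the fits without either control corticosterone array or without either knockout corticosterone array (limma adjusted p = 0.0698 to 0.225), and with 8 arrays the difference was 0.18. The second probe set, 1417168_a_at, read 8.51 to 8.92 on the 7 arrays and 6.78 on untreated control replicate 2, and was not called in any contrast.

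**Figure D3:**
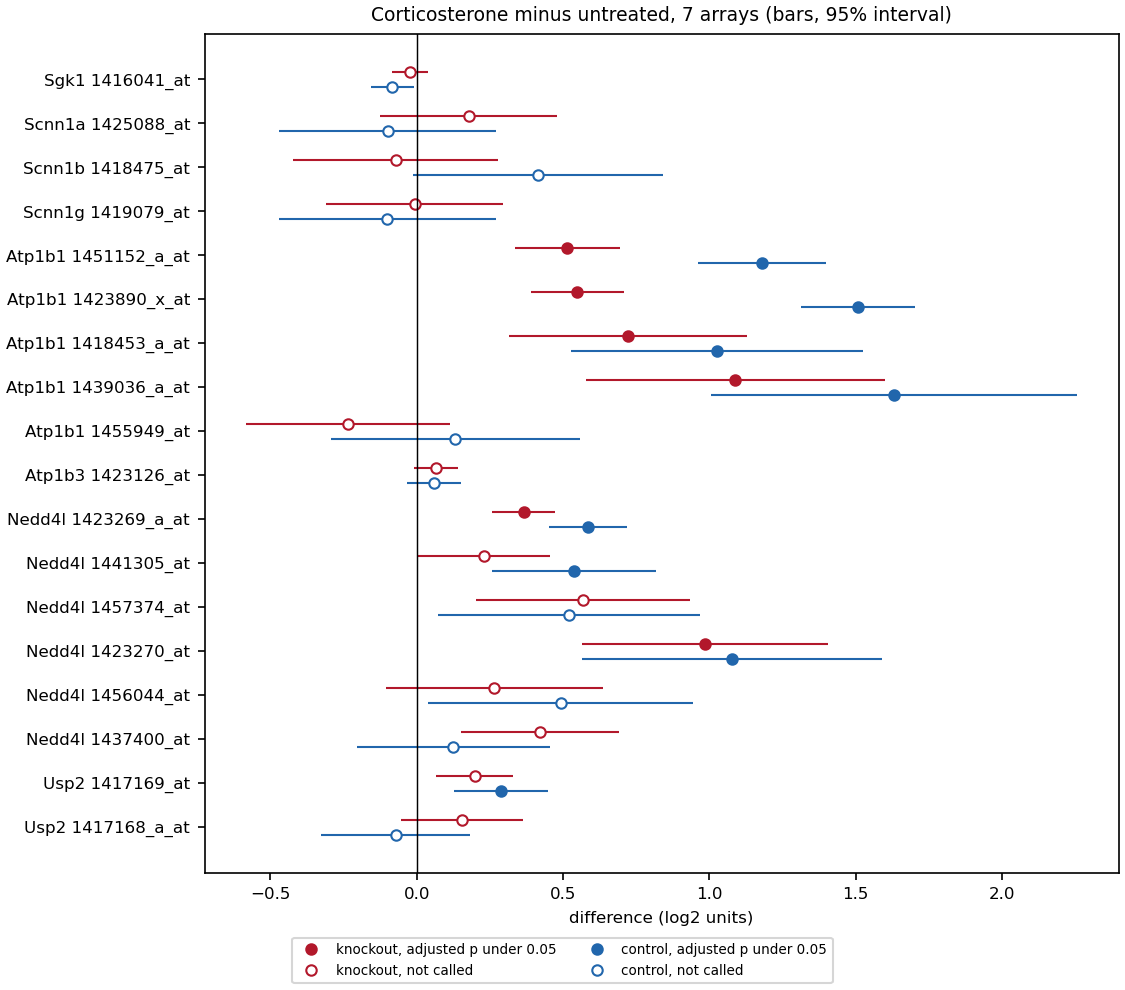
Corticosterone minus untreated difference (log2 units, horizontal axis) of each of the 18 probe sets with 7 arrays, in knockout cells (red) and control cells (blue), with 95% intervals as bars and filled points where the limma adjusted p is under 0.05. The filled points all lie above 0 and belong to Atp1b1, Nedd4l and, in control cells, Usp2.

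Markers of other cells moved with the hormone on the same arrays. The mean of 5 B cell markers was 7.13 and 7.23 in knockout cells with corticosterone, 8.41 and 8.29 in untreated knockout cells, 7.21 and 7.22 in control cells with corticosterone, and 8.12 and 7.47 in untreated control cells. That of 6 T and NK cell markers was 4.53 and 4.61 in knockout cells with corticosterone, 6.05 and 6.01 in untreated knockout cells, 4.70 and 4.76 in control cells with corticosterone, and 5.79 and 5.57 in untreated control cells. The treated arrays were below the untreated ones for both lists, and also for the mean of 4 neutrophil markers, 5.96 to 6.16 with corticosterone and 6.23 to 6.74 without it. These 4 did not move alike. In control cells S100a9 rose from 4.957 in replicate 1 to 5.425 and 5.591, and Camp from 4.061 and 4.12 to 4.133 and 4.277. From replicate 1, S100a8 fell there from 10.8 to 10.74 and 10.69, and Ltf from 5.115 to 4.125 and 4.083. The 6.74 is untreated control replicate 2, where S100a9 read 9.645. The mean of 5 mast cell markers instead rose with corticosterone. It was 6.15 and 6.33 in knockout cells with corticosterone, 5.94 and 5.77 in untreated knockout cells, 5.98 and 6.05 in control cells with corticosterone, and 5.59 and 5.09 in untreated control cells, and every treated array lay above every untreated one. One mast cell marker, Cma1, had group means of 7.24 in untreated knockout cells and 7.165 in treated ones. In control cells Cma1 read 7.295 in untreated replicate 1, and 7.17 and 7.317 with corticosterone. The other mast cell markers had higher group means with corticosterone in both genotypes. In such bulk RNA, fewer cells of a type and less RNA per cell cannot be told apart. The part of all these cells in the rises of Atp1b1, Nedd4l and Usp2 was not tested.

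Whether the responses need the receptor was asked by subtracting the control response from the knockout response. No member passed this interaction test with 7 arrays, where 0.00888% of all probe sets and 0.0165% of all genes did, nor with 8 arrays, where 0% did. With 8 arrays 0 member probe sets had an unadjusted limma p under 0.05, where 682 of all 45037 probe sets had. With 7 arrays this difference was -0.96 to -0.30 over the probe sets of Atp1b1 and -0.31 to 0.30 over those of Nedd4l. Among the members, only the brightest probe sets of Atp1b1 and Nedd4l, and 1423890_x_at of Atp1b1, had 95% intervals below 0. For the brightest Atp1b1 probe set the difference was -0.66 (95% interval -0.95 to -0.38, limma adjusted p = 0.64), and for 1423890_x_at it was -0.96 (-1.21 to -0.71, limma adjusted p = 0.0786). The value of 1423890_x_at passed among probe sets above the median level (limma adjusted p = 0.046), and with 8 arrays both turned positive, at 0.91 and 0.72. For the brightest Nedd4l probe set the difference was -0.22 (-0.39 to -0.05, limma adjusted p = 0.869), and for Usp2 it was -0.09 (-0.30 to 0.12, limma adjusted p = 0.956).

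Between the genotypes few members were called, and none with corticosterone. With 7 arrays, 3 of the 18 probe sets were higher in untreated knockout cells and none was lower, where 0.666% of all probe sets were higher and 0.311% lower, and 2 of the 8 genes were called, against 1.58% of all genes. With corticosterone no member was called, where 0.795% of all probe sets and 1.31% of all genes were. An unadjusted limma p under 0.05 was found there for 3 member probe sets, beside 3616 of all 45037. With 8 arrays no member and 0% of all probe sets were called in either comparison. Then 1 member probe set had an unadjusted limma p under 0.05 in untreated cells, beside 2110 of all, and 0 with corticosterone, beside 532. The median over the 8 genes was 0.05 in untreated cells and -0.02 with corticosterone, beside 0.0129 in untreated cells and 0.00014 with corticosterone over all genes.

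In untreated cells the called genes were Atp1b1 and Usp2, and none was called without the variance trend or with only the arrays compared. The brightest Atp1b1 probe set was 0.61 higher in knockout cells (SE 0.0979, limma adjusted p = 0.021) and 1423890_x_at was 0.85 higher (SE 0.0869, limma adjusted p = 0.00149). These rest on the value of untreated control replicate 1 alone. With 8 arrays the differences were -0.96 and -0.83, and the call of the brightest was lost in 8 of its 16 alternatives, among them the fits without either control corticosterone array (limma adjusted p = 0.0693 and 0.0694). With corticosterone they were -0.05 (95% interval -0.23 to 0.13) and -0.11 (-0.27 to 0.05). The arrays of the genotypes overlapped for the brightest probe set, and the knockout arrays lay below the control arrays for 1423890_x_at.

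Usp2 was 0.39 higher in untreated knockout cells (SE 0.0719, limma adjusted p = 0.0414) and 0.30 higher with corticosterone (SE 0.0587, limma adjusted p = 0.0611). The untreated call was lost in 12 of 16 alternatives, among them the fits without control corticosterone replicate 1 or 2, knockout untreated replicate 2, or knockout corticosterone replicate 1 or 2 (limma adjusted p = 0.0803 to 0.113), and the difference with corticosterone was called in 6 (limma adjusted p = 0.0335 to 0.039). Nedd4l was 0.08 higher in untreated knockout cells (95% interval -0.05 to 0.21) and its difference with corticosterone was -0.14 (-0.25 to -0.03, limma adjusted p = 0.416).

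The mean of the 7 fibroblast markers, all measured, was 8.27 and 7.96 in knockout cells with corticosterone, 8.08 and 8.22 in untreated knockout cells, 7.94 and 7.85 in control cells with corticosterone, and 7.93 and 10.82 in untreated control cells. On the 7 arrays the knockout values were the higher ones, as they were for the brightest Usp2 probe set. The brightest probe sets of Atp1b1 and Usp2, and 1423890_x_at and 1455949_at of Atp1b1, read higher on untreated control replicate 2 than on replicate 1. Other probe sets of both genes read lower there. They were 1418453_a_at (4.06 against 5.12) and 1439036_a_at (2.47 against 3.72) of Atp1b1, and 1417168_a_at of Usp2 (6.78 against 8.69). The part of fibroblast RNA in these differences was not tested.

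**Figure D4:**
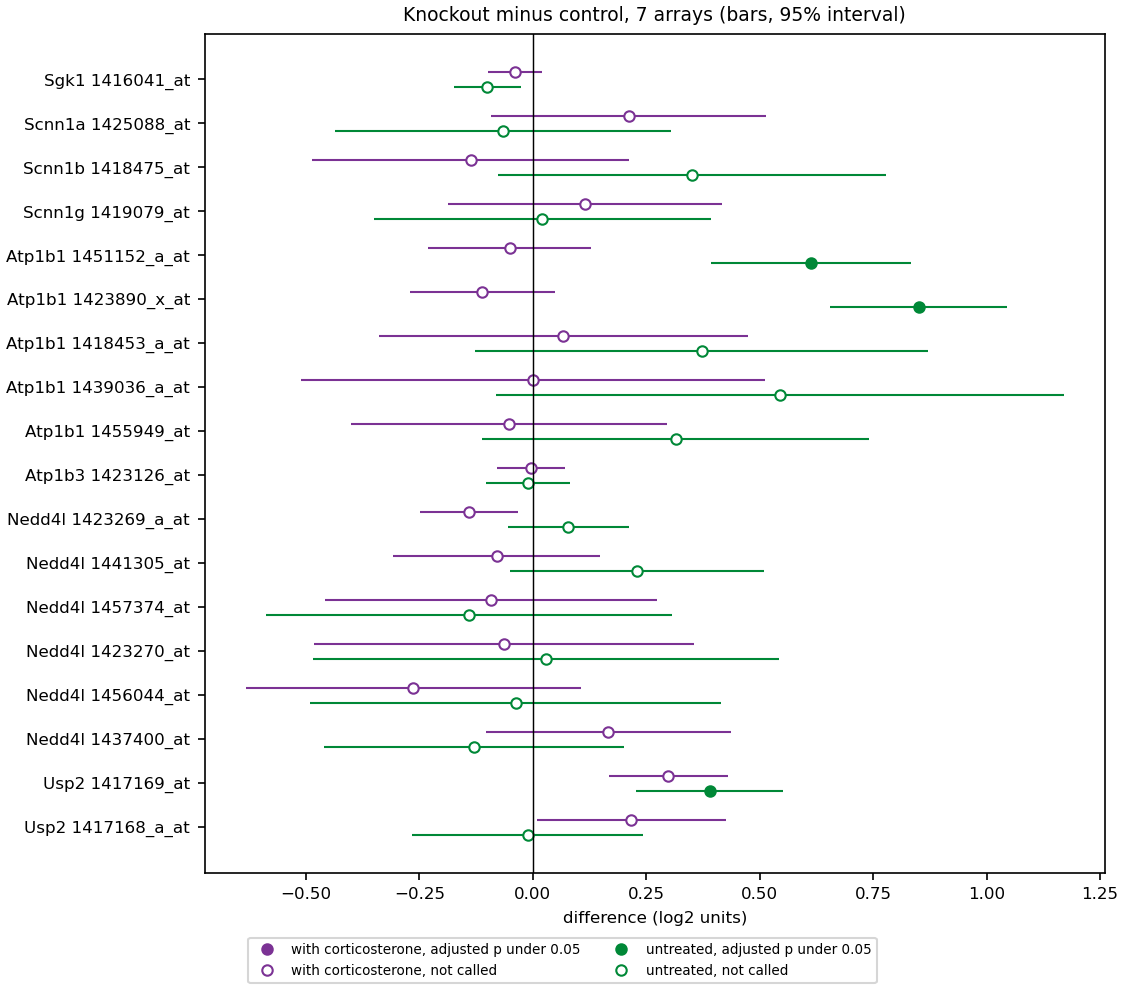
Knockout minus control difference (log2 units, horizontal axis) of each of the 18 probe sets with 7 arrays, with corticosterone (purple) and untreated (green), with 95% intervals as bars and filled points where the limma adjusted p is under 0.05. The 3 filled points are untreated and belong to Atp1b1 (0.61 and 0.85) and Usp2 (0.39).

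The wider pathway was described by 6 lists of 61 genes, of which 52 were measured and 9 were not analysed here. With 7 arrays 8 of the 52 genes rose and 1 fell with corticosterone in knockout cells, where 5.16% of all genes were higher and 7.26% lower. In control cells 7 rose and 1 fell, where 4.30% of all genes were higher and 5.22% lower, and none was called in the interaction. With 8 arrays Fkbp5 alone was called, in both genotypes. Besides the receptor targets above, the calls fell on single genes.

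Of 9 further pump genes, alpha and beta subunits and the small FXYD proteins that tune the pump, none was called in any contrast, and of 13 other sodium and potassium transporters and acid-sensing channels none was called either. Of 9 genes for kinases and partners around SGK1, Wnk1 and Cul3 rose. Wnk1, a kinase that controls sodium chloride cotransport in the kidney, had 12.92 and 12.92 in knockout cells with corticosterone, 12.61 and 12.67 in untreated knockout cells, 12.91 and 12.94 in control cells with corticosterone, and 12.64 and 12.38 in untreated control cells. It rose by 0.28 in knockout cells (limma adjusted p = 0.000114) and by 0.29 in control cells (limma adjusted p = 0.000562). Cul3, the scaffold of the ligase that degrades WNK kinases, rose by 0.32 in knockout cells (limma adjusted p = 0.000226) and by 0.25 in control cells (limma adjusted p = 0.00584). With 8 arrays neither was called, and the control differences were 0.41 for Wnk1 and 0.38 for Cul3.

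Of 6 genes for channel-cleaving proteases and their inhibitors, Spint1 fell. This inhibitor of membrane serine proteases had 6.27 and 5.96 in knockout cells with corticosterone, 7.38 and 7.46 in untreated knockout cells, 6.03 and 6.11 in control cells with corticosterone, and 7.13 and 6.35 in untreated control cells. The differences were -1.30 in knockout cells (limma adjusted p = 0.000166) and -1.06 in control cells (limma adjusted p = 0.00308), and all treated arrays lay below all untreated ones. With 8 arrays the control difference was -0.67 and was not called. Of 8 ubiquitin pathway genes, Ndfip1, an adaptor that activates the NEDD4 ligases, rose by 0.14 in knockout cells (limma adjusted p = 0.0104).

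With corticosterone and 7 arrays, 1 of the 52 genes was called between the genotypes, where 1.31% of all genes were. This was the ubiquitin gene Nedd4, the paralog of Nedd4l. It had 9.16 and 8.82 in knockout cells with corticosterone, 8.86 and 9.21 in untreated knockout cells, 8.28 and 8.28 in control cells with corticosterone, and 8.25 and 12.09 in untreated control cells. Apart from untreated control replicate 2, the knockout arrays lay above the control arrays. The difference was 0.71 with corticosterone (SE 0.127, limma adjusted p = 0.0393) and 0.78 without it (SE 0.155, limma adjusted p = 0.0549) with 7 arrays, and neither was called with 8. The fibroblast markers, given above, were highest on the array where Nedd4 was highest.

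Genes whose levels ran most like those of the called members were listed by Pearson correlation over the 7 arrays, among the genes whose brightest probe set spans at least 1 log2 unit on them (1074 or 1075 genes). For Atp1b1 they were Ndnf (r = 0.986), Fgd2 (0.976) and C1qa (0.971). For Nedd4l they were Lyzl4 (0.994), Adam19 (0.994) and Clec10a (0.986), and for Usp2 they were Col4a1 (0.991), Htra1 (0.988) and Spsb1 (0.986). Over 8 arrays the correlation was 0.994 for Ndnf, 0.913 for Lyzl4 and 0.931 for Clec10a. It was -0.47 for Fgd2, -0.68 for C1qa, 0.39 for Adam19 and 0.23 to 0.39 for the 3 genes of Usp2. Atp1b1 read 11.32 on untreated control replicate 2, against 8.18 to 9.42 elsewhere, so its correlations over 8 arrays lean on that array. All these correlations describe 4 groups of arrays that share treatment and genotype.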

How the data were processed

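The authors deposited 1 table of log2 expression values for 8 arrays, made with RMA in R 2.7 per the submitters' processing notes. RMA makes the distributions of the arrays alike, so values are relative within an array, an overall change in RNA content cannot be seen, and low values are compressed. Array medians were 5.55 to 5.58. No genome build is named for the arrays. Of 45101 probe sets, 64 controls were left out. The platform annotation gave a single gene to 34945 probe sets, more than 1 to 932 and none to 9211.

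From these values limma 3.58.1 in R 4.3.3 was fitted to all 45037 probe sets, with 1 coefficient per group and eBayes with a trend on the mean level. There were 5 contrasts: corticosterone against untreated in each genotype, knockout against control in each treatment, and the interaction. P-values were adjusted by Benjamini-Hochberg over all probe sets and called under 0.05 with no minimum fold. Where 1 value per gene is given, it is that of its brightest probe set, by the mean of all 8 arrays. The fit was tested on simulated data with known changes.

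Named were all probe sets of the 8 genes, Nr3c2, Nr3c1, Hsd11b1 and Hsd11b2, up to 4 called genes per contrast with the smallest p from each wider list, and the 3 genes most correlated with each called member. Lcn2, Edn1, Ndrg2, Dusp1 and C1qb were named after their values were seen. The members, the lists, the tests and the array to leave out were chosen with earlier results of these data known. Alternatives were 1 probe set per gene, no trend, array weights, a filter on level, median centring, a replicate block, fewer arrays and the mean of the probe sets of a gene. Deviations of same-numbered arrays correlated at -0.23 to 0.32 over the 6 pairs of groups. Pairs with the untreated control group hold the departure of its replicate 2. These values therefore do not settle whether the replicate numbers pair the arrays, and the main fits used no pairing.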

Additional observations from a re-analysis of the deposited data

How the results depend on the processing

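All 8 arrays against 7 is the choice that matters most. With 8 arrays, leaving out 1 array in turn gave 0 to 26185 called probe sets for knockout against control untreated, 0 to 363 with corticosterone, 0 to 4118 for corticosterone in knockout cells, 0 to 26400 in control cells and 0 to 23378 for the interaction; the high ends come from leaving out untreated control replicate 1 or 2. With 7 arrays the ranges were 218 to 952 (440 with none left out), 136 to 549 (358), 2203 to 4752 (4118), 1551 to 3994 (3057) and 2 to 7 (4) in the same order.

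With 8 arrays, knockout against control with corticosterone had 0 calls but 275 with array weights and 553 with only the arrays compared. Corticosterone in knockout cells had 26 calls, against 2666 with array weights, 42 above the median level, 2 with the replicate block and 3159 with only the arrays compared. In control cells it had 28, against 10, 53, 0 and 0 in that order. With 7 arrays and no variance trend the 5 contrasts had 64, 100, 1688, 864 and 0 calls. With only the arrays compared, knockout against control had 101 calls untreated and 553 with corticosterone. The replicate block gave 229 calls untreated, 5 arrays gave 171, 165, 2127 and 2 for the contrasts other than corticosterone in control cells, and 1 probe set per gene gave 2493 for corticosterone in knockout cells and 1964 in control cells. The last setting tests fewer features. The cause of the other shifts was not tested.

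Of 40 member differences, 7 were called with 7 arrays. Over their alternatives 80 values kept call and direction, 32 lost the call and 2 reversed: Atp1b1 with 8 arrays, at -0.96 for knockout against control untreated and -0.39 for corticosterone in control cells. Among the uncalled, 510 stayed so and 9 were called. Leaving out 1 further array left 4 to 7 of the 18 member probe sets higher with corticosterone in knockout cells (6 with none left out) and 3 to 8 in control cells (8). The 3 in control cells came without control corticosterone replicate 1, the 5 without its replicate 2. For knockout against control untreated it left 1 to 3 (3), with 1 call without control corticosterone replicate 1 or 2 and 2 without knockout untreated replicate 2 or knockout corticosterone replicate 1 or 2. Without the variance trend, or with only the arrays compared, all 3 were lost. Without the trend the corticosterone calls became 3 in knockout cells and 3 in control cells. Under the replicate block the 3 became 1: Atp1b1 (0.61, limma adjusted p = 0.0793) and Usp2 (0.41, limma adjusted p = 0.101) lost the call, as did Usp2 for corticosterone in control cells (0.31, limma adjusted p = 0.0784). The values are relative within an array, and RMA gives no signal over background, so whether the channel genes lie above it was not tested.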

Other observations

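On untreated control replicate 2, probe sets of Atp1b1 and of Nedd4l departed from the other 7 arrays in opposite directions, and 1 of the 2 probe sets of Usp2 departed. For Atp1b1, 1451152_a_at read 11.32, against 8.18 to 9.42 elsewhere, while 1439036_a_at read 2.47, against 3.72 to 5.56 elsewhere. For Nedd4l, 1441305_at read 9.85, against 6.86 to 7.44 elsewhere, while 1457374_at read 4.45, against 5.37 to 6.24 elsewhere. For Usp2, 1417169_at read 9.24, inside its range of 9.02 to 9.65 elsewhere, while 1417168_a_at read 6.78, against 8.51 to 8.92 elsewhere. The cause was not tested.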
